A study of Mus musculus with 6 samples.

Results

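Integrin activation is the last step by which a platelet turns sticky. Rasgrp2, Rap1a, Rap1b, Fermt3, Tln1, Plek, Syk, Lcp2, Plcg2 and Btk, 10 genes of that step, were examined in megakaryocytes, the polyploid bone marrow cells from which platelets are shed. The genes were taken by symbol from a list chosen with earlier results of these data known. All 10 were measured, each by a single row of the array, among 30063 named genes in all. The cells came from female C57 mice with acute myeloid leukaemia (AML) induced by the fusion oncogene MLL-AF9 (3 arrays) and from healthy control mice (3 arrays). They were sorted from bone marrow by high side scatter, high CD41 and DNA content (8N or above). The arrays of each group are labelled as biological replicates. How the leukaemia was induced, the age of the mice and the animals behind each array are not given in the sources used here. The p-values therefore cover the spread among these 6 arrays alone.

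Resting platelets hold their main integrin, αIIbβ3 (Itga2b and Itgb3), in a bent form that binds fibrinogen weakly. Collagen and podoplanin receptors signal through ITAM motifs: SYK docks on them, builds a complex around the adaptor SLP-76 and, with BTK, switches on phospholipase C gamma 2. The phospholipase makes diacylglycerol and causes calcium to be released. The calcium acts on the exchange factor CalDAG-GEFI, which loads RAP1 with GTP. Calcium and diacylglycerol also act on protein kinase C, which phosphorylates pleckstrin. RAP1 then brings talin to the integrin's beta tail, where talin and kindlin-3 together open the integrin. Megakaryocytes make this machinery in advance and hand it on to platelets. Most of these genes are also used by monocytes, neutrophils, mast cells or B cells.

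The deposited values are log2 expression levels, ± gives the SD (n = 3 arrays), and differences are AML minus control. The median of the 30063 genes stood at 5.29 to 5.32 on the AML arrays and 5.16 to 5.24 on the control arrays, and the median difference over genes was +0.11. A rough level for transcripts that are not expressed is 5.51, the 95th percentile of the mean levels of olfactory and vomeronasal receptor genes, and all 10 genes stood above it on every array. The sorts carried the markers of the labelled cell type: of 24 megakaryocyte markers 21 were measured, all above that level. Of these, 0 passed the threshold in limma in either direction, with 3 higher and 0 lower at an unadjusted p under 0.05. Ppbp, the gene of pro-platelet basic protein, stood at 12.23 ± 0.16 in AML against 12.37 ± 0.17 in control (adjusted p = 0.424). The sorts also carried bright transcripts of other blood cells, given below.

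In the AML sorts the kinase gene Syk, the adaptor gene Lcp2, the GTPase gene Rap1a and the pleckstrin gene Plek fell and the kinase gene Btk rose, at an adjusted p under 0.05 in limma. Tln1 and Fermt3, whose proteins bind the integrin, did not pass, and neither did Rasgrp2, Rap1b and Plcg2. A gene that did not pass is not thereby shown to be unchanged. Over all genes 10.7% passed, 6.25% lower (1880 genes) and 4.49% higher (1350 genes). These shares include many dim genes. In a fit over the 15032 genes at or above the median level, 2126 were lower and 1240 higher. The groups did not overlap for 6 of the 10 genes, 5 lower and 1 higher in AML, against 13.1% of all genes lower and 28.2% higher, 41.3% in all. The median difference of the 10 genes was -0.30. Relative to the median of all genes the differences ran from -0.92 for Syk to +0.33 for Btk. Over genes at or above the median level, where all 10 lie, the median difference was +0.03. Relative to that value the falls are smaller and the rise of Btk is larger.

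**Figure D1:**
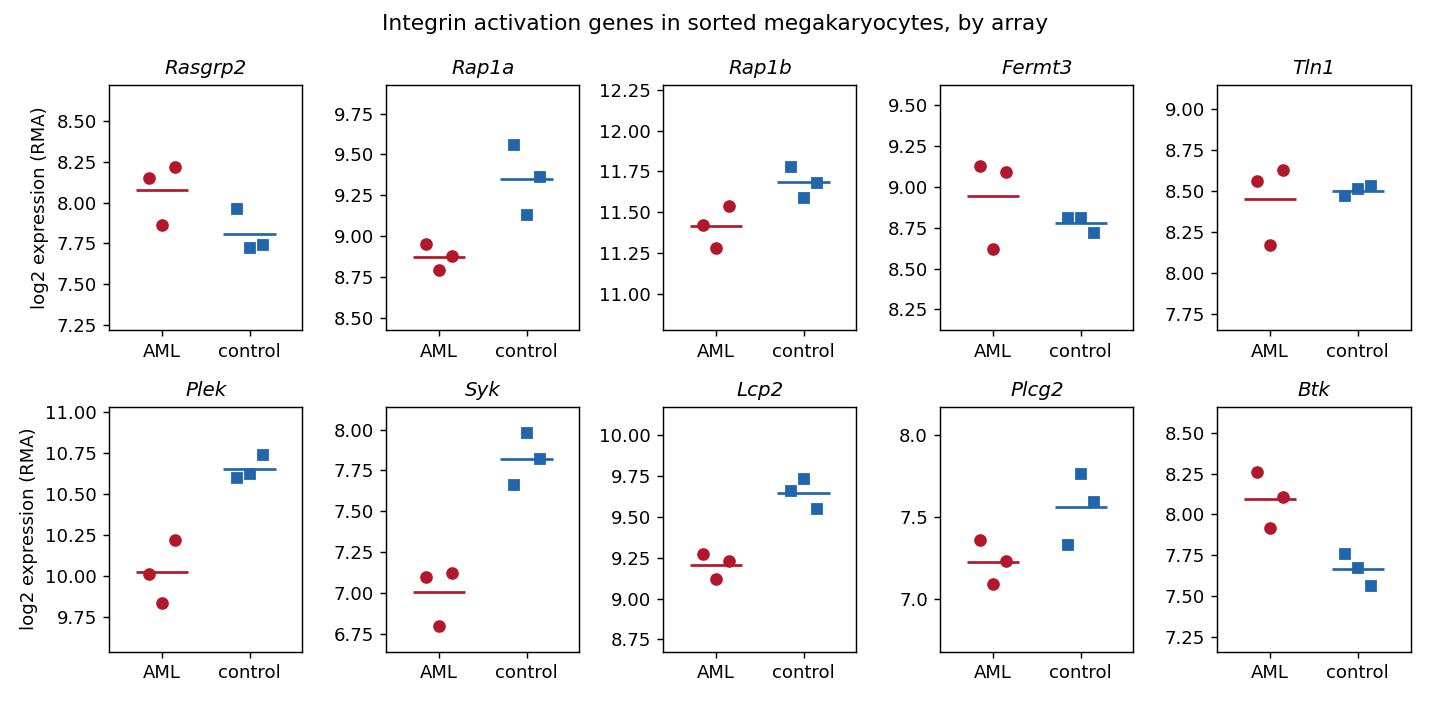
Log2 expression (RMA) of each of the 10 genes on every array, AML as circles and control as squares, with the group mean as a line; each panel spans the same range of log2 units around its own centre. The AML arrays lie below all control arrays for Rap1a, Rap1b, Plek, Syk and Lcp2 and above them for Btk.

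Syk, the kinase that reads phosphorylated ITAM motifs, had the largest difference of the 10. It measured 7.10, 6.80 and 7.12 on AML arrays 1, 2 and 3, against 7.66, 7.98 and 7.82 on control arrays 1, 2 and 3. Every AML array lay below every control array, and the gap between the groups exceeded the range within either. The difference was -0.81 (SE 0.12, 95% confidence interval -1.10 to -0.52), so that the AML level was 57.0% of control (limma adjusted p = 0.00975). The call held when any single array was left out (adjusted p 0.0123 to 0.0483).

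Lcp2 encodes SLP-76, the adaptor on which SYK assembles its complex. Its level was 9.27, 9.12 and 9.23 on the AML arrays, against 9.66, 9.73 and 9.55 on the control arrays. The arrays of each group were close together, within 0.19, and the groups did not overlap. The difference was -0.44 (SE 0.08, 95% confidence interval -0.64 to -0.24, limma adjusted p = 0.0213), or 73.8% of the control level. The call was lost without AML array 2 (adjusted p = 0.0691), control array 1 (0.0505) or control array 2 (0.0986), and also under quantile normalization (0.0634) and cyclic loess (0.0665). Among the 16 alternatives tried it was kept in 8.

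Plcg2 encodes phospholipase C gamma 2, the enzyme at the end of this complex. It stood at 7.36, 7.09 and 7.23 on the AML arrays, against 7.33, 7.76 and 7.59 on the control arrays. AML array 1 lay just above control array 1, so the groups overlapped. The difference of -0.34 (SE 0.13, 95% confidence interval -0.64 to -0.03) did not pass over all genes (limma adjusted p = 0.125).

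Btk, a Tec family kinase that phosphorylates the phospholipase, went the other way. Its level was 8.26, 7.92 and 8.11 on the AML arrays, against 7.76, 7.67 and 7.56 on the control arrays. The lowest AML array stood above the highest control array. The difference was +0.44 (SE 0.11, 95% confidence interval 0.19 to 0.69, limma adjusted p = 0.0451), or 135% of the control level. This call was close to the threshold and held without AML array 2 (adjusted p = 0.0429). Leaving out AML array 1 (0.0997), AML array 3 (0.0680), control array 1 (0.0600), control array 2 (0.147) or control array 3 (0.150) ended it, as did median centring (0.113). Among the 16 alternatives tried the call was kept in 7.

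Tec, the other kinase of that family known from platelets, is not among the 10 genes and fell. It measured 8.86, 8.42 and 8.51 on the AML arrays, against 9.38, 9.40 and 9.26 on the control arrays (difference -0.75, limma adjusted p = 0.0137, or 0.0676 without control array 2). Ratios within an array do not change when an array is rescaled as a whole, and 3 were taken after the values were seen. The log2 ratio of Btk to Tec was -0.50 ± 0.10 in AML against -1.68 ± 0.06 in control (SD, n = 3 each), a shift of +1.18. That of Btk to Syk was 1.09 ± 0.09 in AML against -0.16 ± 0.22 in control, a shift of +1.25. Since Btk lay higher and Syk and Tec lower in AML without overlap, these ratios had to separate, and they are given as a description with no test. Each ratio compares changes, since signals of different probes are not on a common scale.

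**Figure D2:**
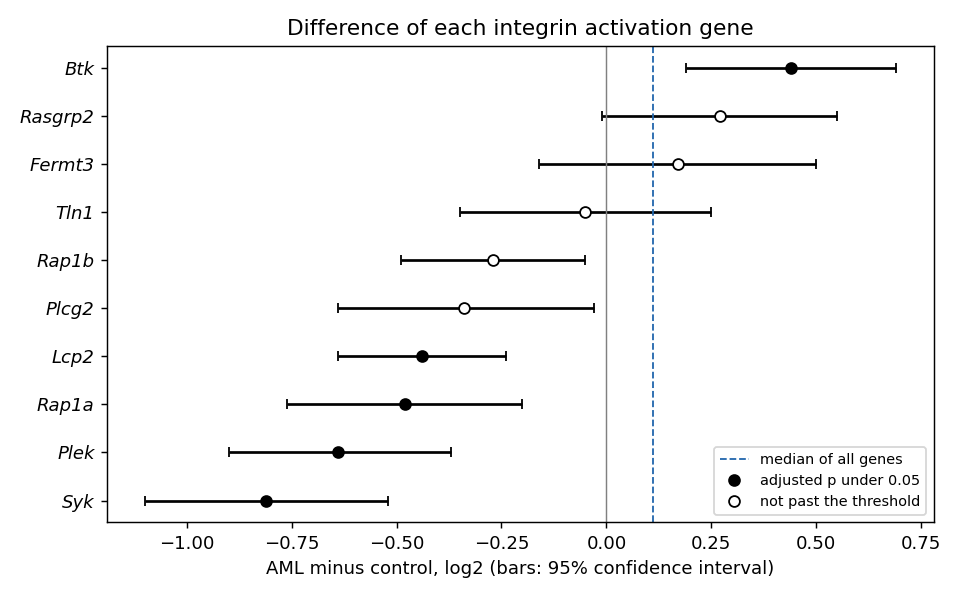
Difference of each gene, AML minus control on the log2 scale, with its 95% confidence interval from limma; filled points passed an adjusted p of 0.05 and the dashed line marks the median of all genes at +0.11. Syk lies at -0.81 and Btk at +0.44, and the intervals of Rasgrp2, Fermt3 and Tln1 include 0.

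Rasgrp2 encodes CalDAG-GEFI, the calcium-sensing exchange factor for RAP1. It stood at 8.15, 7.86 and 8.22 on the AML arrays, against 7.96, 7.72 and 7.74 on the control arrays. AML array 2 lay below control array 1, so the groups overlapped. The difference was +0.27 (SE 0.12, 95% confidence interval -0.01 to 0.55, limma adjusted p = 0.165). It was 0.00 when each array was centred on the median of its megakaryocyte markers.

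The RAP1 GTPases are encoded by Rap1a and Rap1b, and RAP1B is the main form in platelets. Rap1a measured 8.95, 8.79 and 8.88 on the AML arrays, against 9.56, 9.13 and 9.36 on the control arrays. The groups did not overlap, and the control arrays spread more widely than the AML arrays. The difference was -0.48 (SE 0.12, 95% confidence interval -0.76 to -0.20, limma adjusted p = 0.0466), or 71.7% of the control level. The call was lost when any single array but control array 2 was left out (adjusted p 0.0677 to 0.140 for the 3 AML arrays, control array 1 and control array 3). It was also lost under quantile normalization (0.126) and cyclic loess (0.0814), among other settings, and was kept in 5 of the 16 alternatives.

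Rap1b measured 11.42, 11.28 and 11.54 on the AML arrays, against 11.78, 11.59 and 11.68 on the control arrays. Here too all AML arrays lay below all control arrays, the nearest pair by less than 0.1. The difference was -0.27 (SE 0.09, 95% confidence interval -0.49 to -0.05) and did not pass (limma adjusted p = 0.103). It passed under median centring (0.0376) and with array weights (0.0470). The log2 ratio of Rap1b to Rap1a was 2.54 ± 0.10 in AML against 2.33 ± 0.12 in control (SD, n = 3 each), a shift of +0.21. The AML arrays lay above the control arrays, but the nearest arrays of the groups almost touched.

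The genes of talin and kindlin-3, which bind the integrin's beta tail, did not pass the threshold. Tln1, the talin gene, stood at 8.56, 8.17 and 8.63 on the AML arrays, against 8.47, 8.51 and 8.53 on the control arrays. AML array 2 was the lowest of the 6 and the other AML arrays the highest. The difference was -0.05 (SE 0.13, 95% confidence interval -0.35 to 0.25, limma adjusted p = 0.782), and its sign turned without AML array 2 (+0.09), under quantile normalization (+0.10) and under cyclic loess (+0.03).

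Fermt3, the gene of kindlin-3, whose loss in people causes leukocyte adhesion deficiency with bleeding, measured 9.13, 8.62 and 9.09 on the AML arrays, against 8.81, 8.81 and 8.72 on the control arrays. Again AML array 2 lay lowest and the other AML arrays highest. The difference was +0.17 (SE 0.14, 95% confidence interval -0.16 to 0.50, limma adjusted p = 0.402), and -0.10 when centred on megakaryocyte markers.

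Plek encodes pleckstrin, the major protein kinase C substrate of platelets. Its level was 10.01, 9.83 and 10.22 on the AML arrays, against 10.60, 10.62 and 10.74 on the control arrays. The control arrays were within 0.13 of each other and all lay above the AML arrays. The difference was -0.64 (SE 0.11, 95% confidence interval -0.90 to -0.37, limma adjusted p = 0.0165), or 64.4% of the control level. Leaving out AML array 1 (adjusted p = 0.0502), control array 2 (0.0678) or control array 3 (0.0744) ended the call. It was kept under each of the scalings tried.

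RefSeq promoter windows, 250 bases before to 50 bases after a gene's start in the mouse assembly GRCm38.p6, were matched by symbol for 9 of the 10 genes, with 11 windows in all. Those of Syk, Lcp2, Plek and Btk are shown because these genes passed the threshold, the first 3 downward and the last upward. Rap1a, which also passed downward, had no window. For Syk the downstream of its 2 windows is given. Its upstream window held no match to the letters searched for. Each reads 5′ to 3′ on the gene's strand, and capitals mark the letters GAGGAA, the core bound by PU.1 and other ETS factors, or AGATAA, bound by GATA factors, on either strand.
Plek: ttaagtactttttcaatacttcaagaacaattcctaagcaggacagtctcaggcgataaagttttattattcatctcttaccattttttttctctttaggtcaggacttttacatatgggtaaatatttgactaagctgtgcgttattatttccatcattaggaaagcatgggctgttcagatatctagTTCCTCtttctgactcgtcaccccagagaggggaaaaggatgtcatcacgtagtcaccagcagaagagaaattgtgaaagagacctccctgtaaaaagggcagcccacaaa
Syk: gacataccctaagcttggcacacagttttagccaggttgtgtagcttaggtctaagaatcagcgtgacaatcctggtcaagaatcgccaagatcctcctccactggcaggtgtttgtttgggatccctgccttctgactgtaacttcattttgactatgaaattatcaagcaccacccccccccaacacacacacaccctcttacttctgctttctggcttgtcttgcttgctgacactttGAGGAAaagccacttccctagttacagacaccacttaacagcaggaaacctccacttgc
Lcp2: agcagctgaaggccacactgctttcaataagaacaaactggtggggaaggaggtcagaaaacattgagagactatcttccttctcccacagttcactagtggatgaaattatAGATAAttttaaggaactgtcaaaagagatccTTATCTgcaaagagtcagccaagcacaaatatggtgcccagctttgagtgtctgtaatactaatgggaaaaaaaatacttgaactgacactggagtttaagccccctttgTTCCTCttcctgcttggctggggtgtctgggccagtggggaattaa
Btk: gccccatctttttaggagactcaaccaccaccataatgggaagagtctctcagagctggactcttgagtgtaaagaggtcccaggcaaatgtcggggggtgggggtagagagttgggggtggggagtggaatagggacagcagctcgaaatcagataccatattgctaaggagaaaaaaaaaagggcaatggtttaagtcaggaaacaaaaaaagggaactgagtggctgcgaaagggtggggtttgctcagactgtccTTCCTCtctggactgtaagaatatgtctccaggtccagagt
The windows lie at chr11:17008669-17008968 (minus strand) for Plek, chr13:52596632-52596931 (plus strand) for Syk, chr11:34046678-34046977 (plus strand) for Lcp2 and chrX:134583091-134583390 (minus strand) for Btk.

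GAGGAA or its reverse complement TTCCTC was found in 5 of the 11 windows, those of Plek, Syk, Lcp2, Btk and Tln1, against 28.3% of all 32851 promoter windows. As printed, it begins 61 bases before the start in Plek and 9 bases before it in Syk, and at base 5 after the start in Lcp2 and base 10 in Btk. The gene that rose thus holds the same letters as the 3 shown that fell, while Rap1a, which also fell, could not be searched. AGATAA or TTATCT was found in 2 windows, against 11.2% of all. Lcp2 held 2 matches, 138 and 106 bases before the start, and Plcg2 held 1. TGTGGT, the RUNX core, or ACCACA was in the window of Fermt3 only (16.8% of all), and TGAGTCA, bound by AP-1 and NF-E2, or TGACTCA was in 0 of the 11 windows (5.20% of all). None of the marked matches overlap each other. A match describes the letters only.

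Within the AML group the 10 genes shared a low array. AML array 2 was the lowest of the 3 AML arrays for 10 of 10 genes, against 28.0% of all genes and 22.6% of genes at or above the median level. The megakaryocyte markers did the same, with AML array 2 the lowest for 20 of 21. Their median was 8.94, 8.71 and 9.37 on AML arrays 1, 2 and 3, against 8.96, 8.61 and 8.65 on the control arrays. After each array was centred on that median, AML array 2 was the lowest for 0 of the 10 genes. AML array 3, whose marker median was the highest, was lowered the most and then lay lowest for these genes. The centring thus moved the shared low array and did not remove it. No control array was the lowest for more than 4 of the 10 genes. Over bulk sorts, fewer megakaryocytes and less RNA of a gene per cell cannot be told apart.

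**Figure D3:**
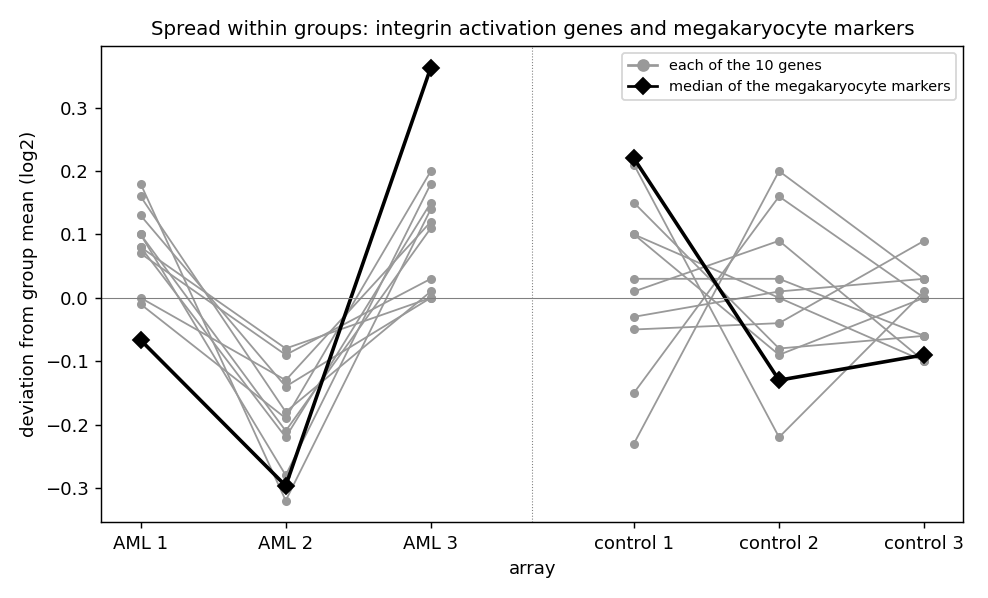
Deviation of each of the 10 genes (grey circles) and of the median megakaryocyte marker (black diamonds) from its own group mean, in log2 units, on the AML arrays (left) and the control arrays (right). On AML array 2 all 10 genes and the marker median lie below 0, while on the control arrays the genes spread to both sides.

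Centring on the megakaryocyte markers moved the median difference of all genes to -0.16 and that of the 10 genes to -0.57. Plek and Syk stayed past the threshold, at -0.90 and -1.08. Btk was no longer past it (+0.17, adjusted p = 0.921), and neither were Rap1a (-0.75, 0.0517) and Lcp2 (-0.71, 0.0751). The SE of each was 0.26 there, against 0.11, 0.12 and 0.08 as deposited. Rap1a and Lcp2 thus lost their calls at larger differences than as deposited (-0.48 and -0.44). Over all genes 240 were then higher and 1723 lower, and 505 were higher and 2712 lower under median centring.

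Markers of other blood cells that use the same signalling genes also differed between the groups. Of 15 monocyte and macrophage markers 13 fell and 0 rose in limma, 15 lower and 0 higher at an unadjusted p under 0.05. Their summed level, on the log2 scale, was 11.25 to 11.84 on the AML arrays against 12.52 to 12.65 on the control arrays. C1qb, a complement gene of macrophages, stood at 8.56 ± 0.45 in AML against 9.71 ± 0.13 in control (adjusted p = 0.0200), and Cd68, a macrophage lysosomal protein, at 9.01 ± 0.39 against 9.80 ± 0.21 (adjusted p = 0.0516). Of 12 neutrophil markers 10 fell, with a summed level of 12.90 to 13.23 in AML against 14.47 to 14.70 in control. Among them Ngp, a granule protein gene, fell by 1.11 and Retnlg fell by 1.06. The 21 megakaryocyte markers summed to 14.22 to 14.70 in AML and 14.33 to 14.62 in control. In control the neutrophil sum was thus about as high. Sums over different probes do not measure the share of a cell type.

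Of 11 basophil, mast cell and eosinophil markers 7 fell, with a summed level of 12.63 to 12.96 in AML against 13.47 to 13.74 in control. Among the 7, Ms4a2 was below the dim level of 5.51 in both groups, and Fcer1a was dim on all 3 AML arrays. Prss34, a basophil protease, fell by 2.39 and Prg2, the eosinophil major basic protein, by 0.44. Of 11 B cell and plasma cell markers 5 fell (8.74 to 8.91 in AML, 9.29 to 9.42 in control). Of these, 7 had an AML mean not above the dim level, and Ms4a1 and Igll1 were below it in both groups. Cd79b fell by 0.39. Jchain, the joining chain of plasma cells, was dim on 2 of the 3 AML arrays and at least 2.62-fold lower in AML (adjusted p = 0.0264), with these arrays set to the dim level. T cell and NK cell markers overlapped (9.31 to 9.66 in AML, 9.34 to 9.56 in control), and 1 of 9, Ncr1, rose. Of the 9, 7 were not above the dim level in either group, among them Cd3e, Cd3d, Cd3g and Ncr1 itself. Nkg7 stood at 8.94 ± 0.27 in AML against 8.83 ± 0.18 in control and Cd4 at 5.49 ± 0.18 against 5.78 ± 0.03. Of 5 erythroid markers 2 fell (8.20 to 8.39 in AML, 8.51 to 8.59 in control), among them Slc4a1 by 0.57. Epor stood at 6.98 ± 0.26 in AML against 6.78 ± 0.03 in control, and Klf1 and Tfrc were dim in both groups. Of 10 leukaemic progenitor markers 4 rose, Eya1, Pbx3, Ctsg and Cd34 (summed level 12.22 to 12.50 in AML, 11.73 to 12.10 in control). The brightest, Elane and Mpo, stood at 10.96 ± 0.11 and 10.32 ± 0.11 in AML against 10.62 ± 0.17 and 10.27 ± 0.29 in control. Neither passed (limma adjusted p = 0.0889 and 0.824). Flt3 of this list was dim in both groups. The part of these cells in the differences of Syk, Lcp2, Plek, Rap1a and Btk was not tested.

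Around the 10 genes, 85 genes of the pathway in 6 lists were measured, and 18 of them fell (21.2%, against 6.25% of all genes) while 0 rose in limma. These lists, too, were chosen with earlier results known, so the share is a description. At an unadjusted p under 0.05, 32 were lower and 2 higher. The number that fell was 5 without control array 2 and 8 without control array 3. It was 31 with array weights and 28 under median centring. The share over all genes includes many dim genes. In a fit over the 15032 genes at or above the median level, 2126 genes were lower, 24 of them from these lists. Between 1 and 2 genes rose in 6 of the 16 alternatives. The lists' median differences lay between -0.26 and -0.06. Itga2b, Itgb3, Itga2, Gp6 and Clec1b are also among the megakaryocyte markers.

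The integrins themselves did not pass. Of 6 platelet integrin subunits 0 fell and 0 rose in limma, with 2 lower and 0 higher at an unadjusted p under 0.05. Itga2b, the αIIb subunit by which the cells were sorted, stood at 9.22 ± 0.46 in AML against 9.04 ± 0.11 in control.

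Of 8 ITAM receptor and Src family kinase genes 3 fell. Fgr, a Src family kinase of myeloid cells, measured 7.00 ± 0.19 in AML against 8.20 ± 0.13 in control (difference -1.20, adjusted p = 0.00199). Fcer1g, the ITAM chain that pairs with the collagen receptor GPVI, measured 9.59 ± 0.08 in AML against 10.17 ± 0.07 in control (difference -0.59, adjusted p = 0.00633). Fyn, another Src family kinase, fell by 0.58, a call kept only without AML array 3 when single arrays were left out (adjusted p 0.0777 to 0.158 otherwise). By contrast Gp6, the GPVI gene itself, and Clec1b, the podoplanin receptor gene, were chosen after their values were seen and stood at 9.80 and 10.92 in AML against 9.69 and 10.78 in control (adjusted p 0.788 and 0.617).

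Of 15 genes of the LAT complex and its lipid kinases 3 fell: Tec, Pik3ca by 0.54 and Pik3cg by 0.55, the last 2 being catalytic subunits of phosphoinositide 3-kinases. Pik3cg missed the threshold when AML array 2, control array 2 or control array 3 was absent (0.0836 to 0.110). In the calcium and protein kinase C branch 4 of 12 fell, among them the kinases Prkcd by 0.68 and Prkcb by 0.73, and Gna13, a G protein alpha subunit, by 0.46. Prkcd missed the threshold without control array 2 (adjusted p = 0.0519), and Prkcb and Gna13 did so without control array 2 and without control array 3 (0.0532 to 0.0718).

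Among 18 RAP1 partners and integrin tail binders 3 fell. Apbb1ip, the gene of RIAM, which links RAP1 to talin, measured 7.52 ± 0.30 in AML against 8.25 ± 0.10 in control (difference -0.73, adjusted p = 0.0279). Rapgef2, an exchange factor for RAP1, fell by 0.84, and both genes missed the threshold when AML array 1, control array 2 or control array 3 was absent (0.0503 to 0.111). Rap2c, a RAP1 relative, fell by 0.46, a call kept only without AML array 3 when single arrays were left out (adjusted p 0.0673 to 0.120 otherwise).

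Of 26 genes in a list of brakes on integrin activation and genes linked to them, 5 fell. The list is loose, and not every gene in it acts as a brake. Ptpn22, a tyrosine phosphatase of leukocytes, measured 6.07 ± 0.29 in AML against 7.59 ± 0.15 in control (difference -1.51, adjusted p = 0.00220). Lair1, an inhibitory collagen receptor, fell by 1.14. Rap1gap2, which switches RAP1 off in human platelets, measured 6.34 ± 0.04 in AML against 7.29 ± 0.30 in control (difference -0.95, adjusted p = 0.0108, or 0.0554 without control array 2).

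Paralogs of the 10 genes serve other tissues or immune cells, and they were counted apart. Of the 13 measured, 3 had means above the dim level in both groups, 3 in control alone and 7 in neither. In limma 3 of the 13 fell. Txk and Rasgrp1 were dim on all 3 AML arrays, with AML means of 5.19 and 5.13 against 6.0 and 5.67 in control, and were at least 1.40-fold and 1.12-fold lower (adjusted p = 0.00648 and 0.00785). Fermt2, the kindlin-2 gene, passed at a mean of 4.72 in AML against 5.03 in control, dim in both, so no fold is given, and its call was lost without any single array (adjusted p 0.0535 to 0.158). Zap70, the T cell relative of Syk, was chosen after its values were seen and stood at 5.35 ± 0.10 in AML against 5.17 ± 0.05 in control, below the dim level.

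**Figure D4:**
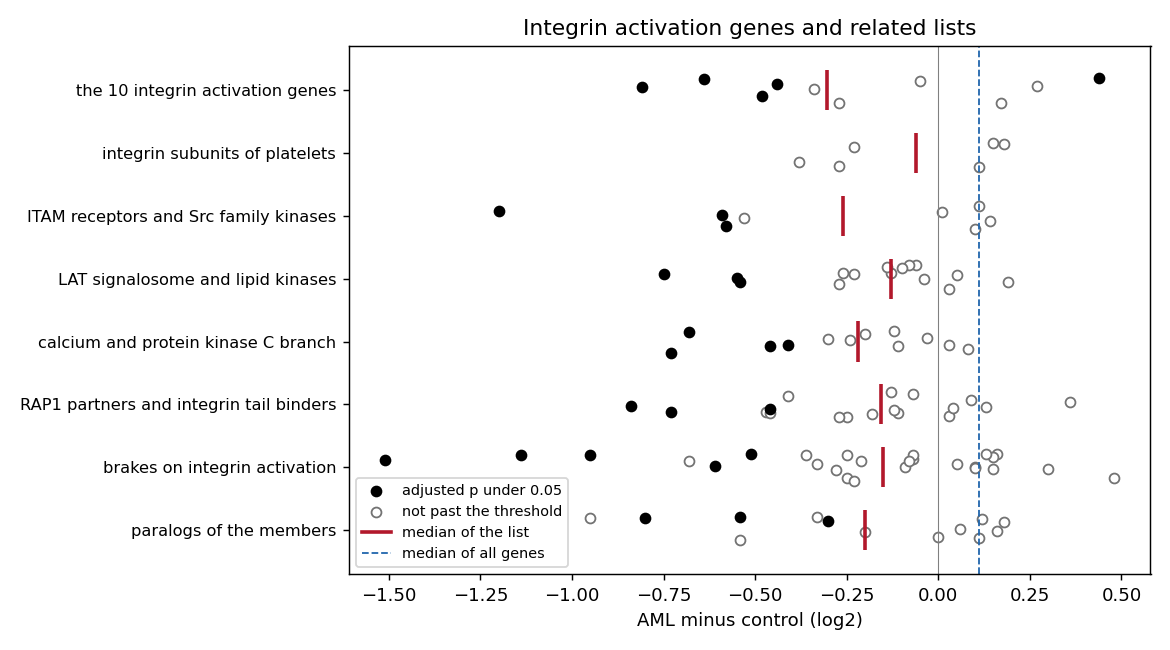
Difference of each gene, AML minus control on the log2 scale, in the 10 integrin activation genes and the 7 related lists, paralogs included; filled points passed an adjusted p of 0.05, red bars are list medians and the dashed line is the median of all genes. All filled points but Btk lie below 0.

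Over the 6 arrays the genes of these lists whose levels followed Syk most closely were Txk, Dok2 and Ptpn22, with Pearson correlations of 0.995, 0.995 and 0.993. These values mainly restate the gap between the groups and are given as a description, with no test.

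**Figure D5:**
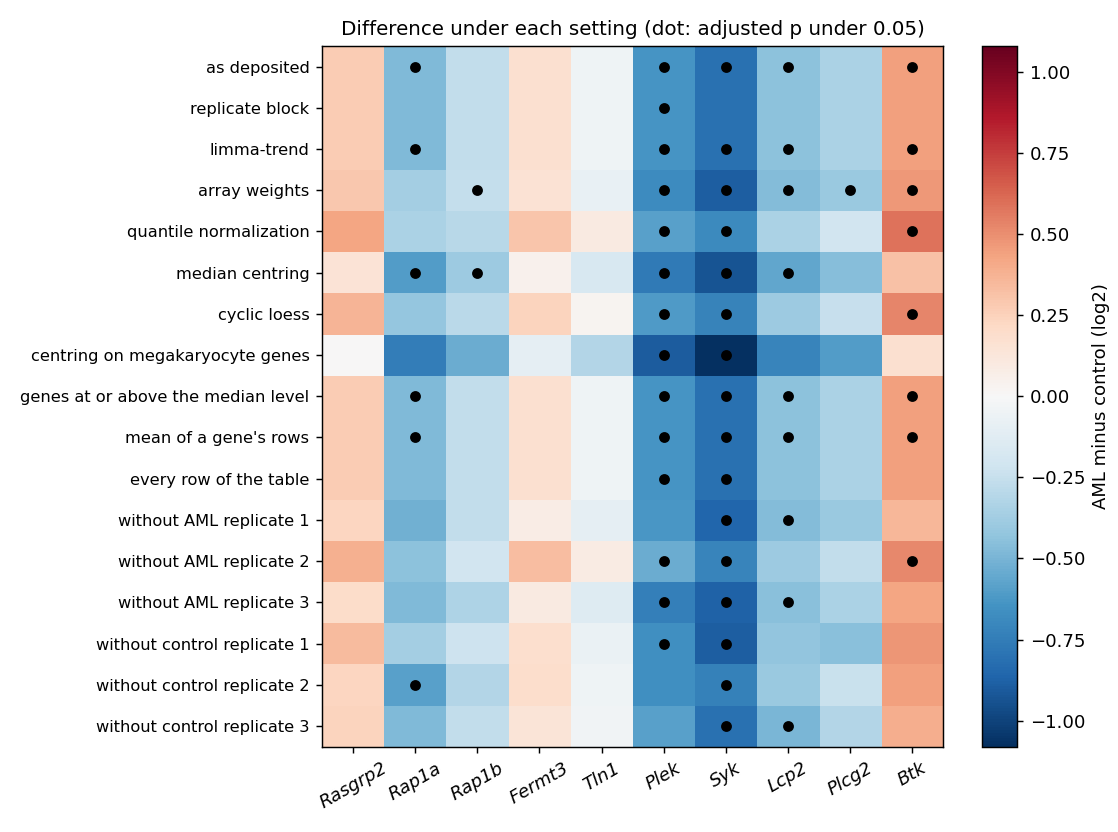
Difference of each of the 10 genes (columns) under each way of scaling, fitting or leaving out arrays (rows), coloured by AML minus control on the log2 scale, with a dot where the adjusted p was under 0.05. Syk keeps its dot in 15 of 16 alternatives and Plek in 13, whereas Rap1a keeps it in 5 and Btk in 7.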

How the data were processed

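Total RNA of flow-sorted megakaryocytes was hybridised to Affymetrix whole-transcript arrays, 3 per group. The deposited values are log2 expression after RMA, by the authors, per the submitters' processing notes. No RMA version or array genome build is given there. RMA gives all arrays a like distribution, which hides changes shared by most genes, and precision is limited by the number of arrays.

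Of 72688 rows, 30604 had a single platform symbol. Symbols were updated through a RefSeq table of GRCm38.p6 and the brightest row per gene was kept (30063 genes). The values were fitted as deposited with limma (lmFit, eBayes, two-sided, AML minus control). P-values were adjusted by Benjamini-Hochberg over all genes, and the threshold was 0.05. Tested on simulated data, the fit recovered all changes of the largest size tried but few of the smallest. Far fewer genes were changed there than passed here, which makes the adjusted threshold stricter, so the recovery does not carry over to these data. It also says nothing of Rap1b and Plcg2, whose differences were smaller than any size tried. The members, the pathway and marker lists and the naming rule were chosen with earlier results of these data known. The rule took, per pathway list, the 3 smallest p in each direction or the brightest gene, and per cell type the 2 brightest markers. The alternatives were the replicate block, limma-trend, array weights, renewed quantile, median, cyclic loess and megakaryocyte scaling, leaving out dim genes, the mean of a gene's rows, every row, a 1.5-fold minimum and leaving out each array. Counts of pathway genes under them, with and without paralogs, were added later. Software was limma 3.58.1 in R 4.3.3, with numpy 2.4.6, pandas 2.3.3 and matplotlib 3.10.9 in Python 3.11.15.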

Additional observations from a re-analysis of the deposited data

How the results depend on the processing

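The direction of Syk, Plek, Lcp2, Rap1a, Rap1b, Plcg2 and Btk held under all 16 alternatives, with Syk between -1.08 and -0.69 and Btk between 0.17 and 0.59. Of the 10 genes, 4 were lower and 1 higher as deposited. The lower count was 2 under quantile normalization, cyclic loess, megakaryocyte centring, a fit over every row and a 1.5-fold minimum. The higher count was 0 under median and megakaryocyte centring, a fit over every row and a 1.5-fold minimum. When single arrays were left out, 2 to 3 genes were lower and 0 to 1 higher. Over all genes, 1350 were higher and 1880 lower. There were 4839 and 3014 with array weights and 439 and 1126 at 1.5-fold. Median centring gave 505 higher, megakaryocyte centring 240 and a fit over every row 764. Leaving out single arrays gave 185 to 1639 higher and 782 to 1967 lower. Lower pathway genes numbered 18, or 31 with array weights, 28 under median centring and 5 to 22 with single arrays left out. With paralogs they numbered 21, or 37, 32 and 7 to 24 under these settings. With the replicate number as a block, 1 of the 10 genes was lower (Plek) and 0 higher, with 861 and 206 over all genes and 9 pathway genes lower (11 with paralogs). Syk then had an adjusted p of 0.0543. Whether the replicate numbers pair the arrays is not given in the labels. Same-numbered arrays had deviations correlated at -0.36, 0.14 and -0.29, and with 3 arrays per group these values cannot decide it. With 3 arrays per group, differences near 0.4 lay close to the threshold.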
